A study of Mus musculus with 3 samples.

Results

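The odd-probe capture is the DNA recovered from C2C12 cells with the odd-numbered members of a set of antisense oligonucleotides against the long non-coding RNA Pvt1. Its members are all 962 peaks in the deposited peak list of that library, of 1676 peaks in the odd and even lists together. Each odd peak was marked as shared if it had at least 1 bp in common with a peak of the even-probe list, and as odd-only if it had none. The mark split the capture into 458 shared and 504 odd-only peaks. The 459 even peaks on the other side of that overlap were 64.3% of the 714 even peaks, and the shared odd peaks were 47.6% of the odd list.

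C2C12 is an established mouse myoblast line, grown here in proliferation medium and used at passages 8 to 14, with no genetic change or drug treatment named in the labels. All samples came from cells fixed with 1% glutaraldehyde for 15 min. The study used chromatin isolation by RNA purification (ChIRP), in which biotinylated DNA probes hybridise to an RNA and the DNA fixed to it is recovered and sequenced. The odd sample was chromatin of 50 to 130 bp fragments pulled down with the odd set of 9 probes, the even sample was the same kind of chromatin pulled down with the other 9, and the unprecipitated sample was DNA sheared to about 400 bp. There was 1 library for each, so no value below has a replicate error. The files hold DNA positions and no expression values, so the cell type was not checked against its markers. Both peak lists were called against the same unprecipitated library, and the design text describes the odd and even pull-downs as separate biological samples, so probe set and cell sample cannot be told apart.

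Pvt1 is transcribed from a gene that lies next to the Myc oncogene, and both loci are often gained together in tumours. The RNA is found in the nucleus and has been studied in cancer and in skeletal muscle wasting. In ChIRP the probes are designed to pair with the RNA, and because they are antisense DNA they can also pair with the gene that encodes it. Splitting the probes into odd and even sets gives captures that have the target RNA but no probe sequence in common.

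The odd probes are shown first because they define the capture. They are 20 bases long and are written 5′ to 3′ as the labels give them.
Odd probe 1: tctgggaatgctaagttcgt
Odd probe 2: ggcatccaggctgaagaatc
Odd probe 3: cttgaattctcaatggccac
Odd probe 4: agacttccatctttgctatt
Odd probe 5: agtattctagcttggagcta
Odd probe 6: tttttcacaagccagcattc
Odd probe 7: gtccctcactacacagaaag
Odd probe 8: tagcagagtggttcaaaggc
Odd probe 9: agacttagggcatacaggta
All 9 matched the GRCm38 reference (mm10) exactly inside Pvt1, on the strand opposite to the gene. Probe 1 lay at chr15:62038103-62038122 at the start of the gene, and probe 9 at chr15:62250790-62250809. The GC content ran from 35.0% for probe 4 to 55.0% for probe 2.

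The peak sequences below are those on which the description of the capture turns, read from the GRCm38 reference. In the peaks inside Pvt1 the capitals mark the site of an odd probe, read on the plus strand. The highest peak of the capture, at chr15:62250661-62250948 with 22 tags, held the site of probe 9, and the peak over the start of the gene, at chr15:62037974-62038124 with 7 tags, held that of probe 1.
Pvt1 highest peak: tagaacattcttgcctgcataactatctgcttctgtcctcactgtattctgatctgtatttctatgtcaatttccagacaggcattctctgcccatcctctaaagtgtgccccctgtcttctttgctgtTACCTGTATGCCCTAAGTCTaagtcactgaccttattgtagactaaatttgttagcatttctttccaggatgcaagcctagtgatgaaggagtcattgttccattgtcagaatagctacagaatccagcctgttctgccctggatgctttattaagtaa
Pvt1 first peak: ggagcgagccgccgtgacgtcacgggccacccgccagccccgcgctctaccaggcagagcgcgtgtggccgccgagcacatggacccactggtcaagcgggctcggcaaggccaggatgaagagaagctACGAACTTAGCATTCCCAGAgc

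The 3 highest shared peaks outside Pvt1 are shown with a recurring element near one end in capitals. They lay in Unc5d at chr8:29172774-29172936 (15 tags), between genes at chr1:141647923-141648081 (14 tags) and between genes at chr3:76037366-76037522 (13 tags), all written on the plus strand.
Shared peak in Unc5d: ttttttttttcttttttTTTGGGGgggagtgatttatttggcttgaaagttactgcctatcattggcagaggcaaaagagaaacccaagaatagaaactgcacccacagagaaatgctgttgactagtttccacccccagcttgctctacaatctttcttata
Shared peak on chromosome 1: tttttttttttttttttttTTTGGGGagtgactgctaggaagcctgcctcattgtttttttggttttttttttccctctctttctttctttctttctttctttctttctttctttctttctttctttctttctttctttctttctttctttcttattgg
Shared peak on chromosome 3: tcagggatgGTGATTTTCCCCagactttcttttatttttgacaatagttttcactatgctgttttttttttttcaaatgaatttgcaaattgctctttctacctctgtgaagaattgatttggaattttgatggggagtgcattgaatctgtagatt

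The odd-only peaks chosen for the same reason lay in Tmcc3 at chr10:94490754-94490908 (10 tags) and between genes at chr4:70562118-70562271 (9 tags, written on the minus strand). Capitals again mark the recurring elements.
Odd-only peak in Tmcc3: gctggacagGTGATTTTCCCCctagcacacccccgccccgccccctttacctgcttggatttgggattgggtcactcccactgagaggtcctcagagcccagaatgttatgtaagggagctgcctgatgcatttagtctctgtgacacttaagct
Odd-only peak on chromosome 4: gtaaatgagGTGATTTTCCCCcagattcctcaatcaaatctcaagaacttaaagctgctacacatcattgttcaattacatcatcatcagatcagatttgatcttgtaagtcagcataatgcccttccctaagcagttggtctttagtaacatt

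The highest shared and odd-only promoter peaks, upstream of Commd8 at chr5:72168315-72168478 and upstream of Ptpn13 at chr5:103423452-103423602, are given on the plus strand with the same marking. The last sequence of the set lay upstream of Gm29797 at chr2:181656589-181656738. It was the highest promoter peak with none of these elements and no exact probe run of at least 12 bases, and therefore has no capitals. Its longest exact match to an odd probe was 11 bases, just under that limit.
Commd8 promoter peak: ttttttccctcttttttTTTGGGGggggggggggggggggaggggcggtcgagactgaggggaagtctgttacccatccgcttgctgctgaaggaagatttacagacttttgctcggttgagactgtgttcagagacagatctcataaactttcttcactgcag
Ptpn13 promoter peak: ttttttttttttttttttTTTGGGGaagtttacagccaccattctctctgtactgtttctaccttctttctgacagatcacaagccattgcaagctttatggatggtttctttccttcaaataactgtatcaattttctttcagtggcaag
Gm29797 promoter peak: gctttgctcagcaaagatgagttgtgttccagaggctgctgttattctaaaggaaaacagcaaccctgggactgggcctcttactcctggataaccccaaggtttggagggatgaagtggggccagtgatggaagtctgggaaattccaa

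Each peak of the capture rested on few tags. The odd library had 1310893 tags with a size of 105 bp, of which 14203 (1.08%) remained after the authors' caller kept 1 tag per position. In the even library 12715 of 1352067 tags (0.940%) remained, with a tag size of 54 bp, and in the unprecipitated library 5104779 of 5375267 (95.0%). The height of a peak is given as its pileup, the number of kept tags, each extended to 147 bp, that lie over the summit. The summit pileups of the 962 odd peaks summed to 4103, equal to 28.9% of the kept odd tags.

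Odd peaks were low and close to the length of 1 extended tag. The median pileup was 4 tags and the median length 148 bp. A pileup of 3 tags, the lowest in the list, was found in 471 peaks (49.0%), 4 tags in 218 peaks, 5 tags in 105, 6 to 9 in 139, and 10 or more in 29. The highest pileup was 22 tags and the longest peak 813 bp, both inside Pvt1.

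Shared peaks were higher than odd-only peaks. Shared peaks had a median of 5 tags and a mean of 5.19, and odd-only peaks a median of 3 and a mean of 3.43. A pileup of 3 tags made up 27.1% of shared and 68.8% of odd-only peaks. Of the 29 peaks with 10 or more tags, 28 were shared, and the exception was the Tmcc3 peak shown above. The share of odd peaks that overlapped an even peak was 26.3% at 3 tags (exact binomial 95% interval 22.4% to 30.6%), 44.5% at 4 tags (37.8% to 51.4%) and 78.1% at 5 tags (69.0% to 85.6%). It was 91.4% among the 139 peaks with 6 to 9 tags and 96.6% among those with 10 or more. These intervals cover the counting of peaks only.

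**Figure D1:**
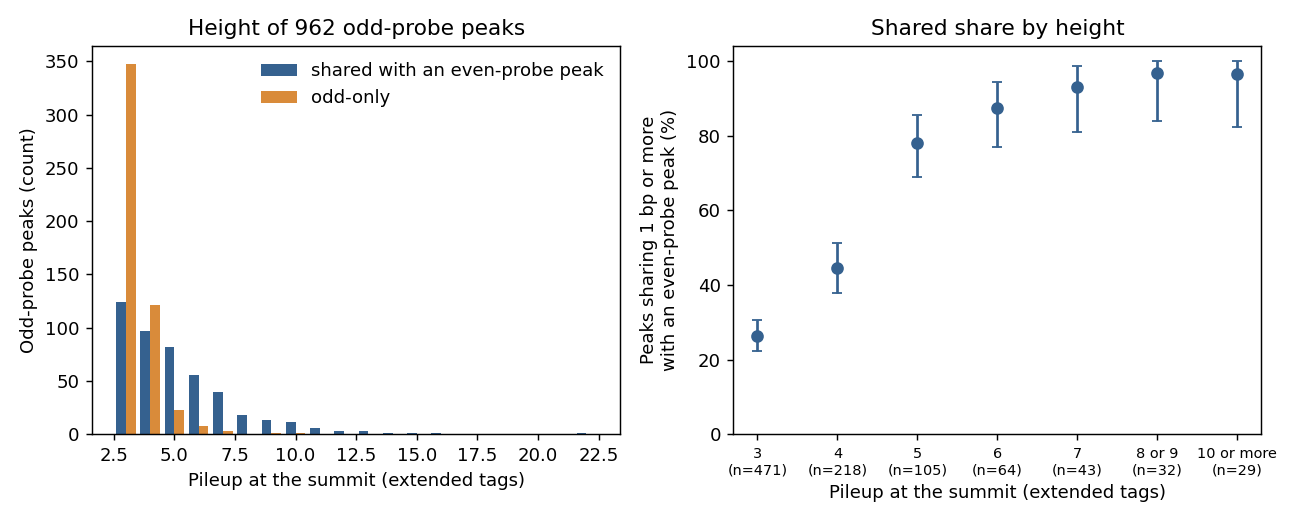
Left, number of odd-probe peaks (y axis) by pileup at the summit in extended tags (x axis), for shared and odd-only peaks. Right, percent of odd-probe peaks that overlap an even-probe peak (y axis) by pileup (x axis), with exact binomial 95% intervals as bars; the share is 26.3% at 3 tags and 96.6% at 10 or more.

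Where both probe sets gave a peak, most heights were within 1 tag of each other. The odd pileup was higher than the even one at 187 of the 458 shared peaks, equal at 161 and lower at 110. The median difference was 0 tags, and 330 shared peaks (72.1%) differed by at most 1 tag, in a list whose lowest pileup was 3 tags. The extremes were an odd pileup 9 tags above the even one, at chr5:138694875-138695031 (12 and 3 tags), and one 14 tags below it, in an intron of Arhgap24 (4 and 18 tags). Both lists gave the same start coordinate for 202 of them.

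The capture recovered DNA at the gene of its target. Pvt1 (ENSMUSG00000097039.8, plus strand, chromosome 15 from 62037986 to 62378096) held 8 odd peaks, with pileups from the 5′ end of the gene of 7, 9, 3, 3, 13, 4, 16 and 22 tags. The 3 highest lay in the part of the gene that holds probes 4 to 9. All 9 probe sites were covered by a peak: the peak of 16 tags, at chr15:62249569-62250381, held probes 6, 7 and 8, and 6 other peaks held 1 probe site each. The eighth peak, of 3 tags at chr15:62175344-62175490, held no odd probe site but held 19 bases of even probe 3. In all, 5 of the 8 peaks held an exact match of at least 12 bases to an even probe. Of the 8 peaks, 7 were shared, with even pileups of 7, 6, 3, 12, 3, 9 and 20 tags. The odd-only one was the peak of 3 tags over probe 3, at chr15:62159894-62160040. The neighbouring Myc gene (ENSMUSG00000022346.15, chromosome 15 from 61985391 to 61990374) held no odd peak.

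Several of these peaks ended where a probe site ended. The right end of the peak lay 2 bp beyond the site of probe 1, 12 bp beyond that of probe 2, and at the last base of the sites of probes 3 and 5. Since the probes are antisense to the gene, that end is the one at which the 5′ end of the probe lies.

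Outside Pvt1, few odd peaks carried sequence of their own probes. An exact run of at least 12 bases of an odd probe, on either strand, was found in 11 of 954 peaks (1.15%). A run of an even probe, which was not in this capture, was found in 17 of them (1.78%). Among all non-overlapping 148-bp windows of the genome without unknown bases, 0.190% held a run of an odd and 0.189% of an even probe. Both probe sets were thus matched by a larger share of odd peaks than of windows, and the odd set by no more peaks than the even set. With a minimum of 14 bases the counts were 5 and 6, and with 10 bases 67 and 76.

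Among the runs of at least 14 bases, 3 in shared peaks of at most 300 bp are shown with the run in capitals, so that they can be laid beside the probes above. They lay in an intron of Ythdf3, which encodes a reader of methylated adenosine in RNA, at chr3:16210385-16210539 (19 bases of probe 2), in Gm10069 at chr6:128465790-128465936 (18 bases of probe 7) and between genes at chr9:100087306-100087467 (14 bases of probe 5).
Ythdf3 peak: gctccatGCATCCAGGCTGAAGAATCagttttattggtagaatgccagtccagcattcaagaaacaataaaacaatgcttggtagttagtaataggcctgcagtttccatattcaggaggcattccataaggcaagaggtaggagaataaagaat
Gm10069 peak: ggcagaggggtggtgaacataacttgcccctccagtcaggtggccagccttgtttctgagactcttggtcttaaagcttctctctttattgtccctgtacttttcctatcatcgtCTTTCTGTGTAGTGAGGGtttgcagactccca
Peak on chromosome 9: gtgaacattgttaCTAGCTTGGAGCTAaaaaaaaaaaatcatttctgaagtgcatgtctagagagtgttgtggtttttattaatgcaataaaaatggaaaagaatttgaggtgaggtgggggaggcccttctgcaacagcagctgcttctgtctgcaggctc
The Ythdf3 peak had 7 odd and 3 even tags, the Gm10069 peak 3 and 3, and the chromosome 9 peak 7 and 6, so all 3 were shared. A run of 17 bases of probe 7 lay in a shared peak at chr5:119820969-119821313 with 7 odd and 7 even tags, 11527 bp from the start of Tbx5, a heart and limb transcription factor. Among odd-only peaks outside Pvt1, 3 of 503 held a run of an odd probe and 9 held a run of an even probe. The 3 lay in introns of Cc2d2a (14 bases of probe 7, 4 tags), Gabbr1 (12 bases of probe 9, 3 tags) and Cc2d2b (12 bases of probe 9, 3 tags). Among the 451 shared peaks outside Pvt1, 8 held a run of an odd probe and 8 others a run of an even probe.

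The runs had a common place in the peak. For 8 of the 11 peaks with an odd-probe run and 15 of the 17 with an even-probe run, base 1 of the probe would fall between 5 bp outside and 20 bp inside a peak end, with the probe reading inward from it. This is the arrangement seen at probes 1, 2, 3 and 5 in Pvt1. No share of genome windows is set beside the counts of 8 and 15 peaks, which are a description.

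Most odd peaks had other short sequences in common at their ends. The most frequent 8-base sequences within 15 bp of an end, counted with their reverse complements, were TGATTTCC in 169 peaks, GTGATTTC in 155, AGTGATTT in 153, GATTTCCC in 136 and GAGTGATT in 124. These overlap each other, and 555 peaks (57.7%) held at least 1 of the 20 most frequent. That share was 65.9% in shared and 50.2% in odd-only peaks, and 5.68% in the genome windows. The list was drawn from these same peaks, so its frequency in them is a description.

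A set of 3 shorter elements, chosen after these sequences were seen, described most of the list. The first is TTTCCCC, the next is GTGATT, and the other is TTTGGGG, each read inward from either end of the peak and starting at most 25 bp inside it. TTTCCCC was found in 567 odd peaks (58.9%, against 0.665% of genome windows), GTGATT in 327 (34.0%, against 1.33%) and TTTGGGG in 121 (12.6%, against 0.569%). GTGATT occurred together with TTTCCCC in 219 peaks, often overlapping or adjoining as in the Tmcc3 peak above. At least 1 element was found in 781 odd peaks (81.2%) and in 2.55% of windows. None of the 18 probes contained any of the elements on either strand. The even list, the other capture, held an element in 557 of 714 peaks (78.0%). Of the 459 even peaks that overlapped an odd peak, 402 (87.6%) held one, against 155 of the 255 even-only peaks (60.8%). The elements were chosen on the odd peaks, so the overlapping even peaks are not a separate check.

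TTTCCCC had a narrow position. It began a median of 10 bp inside the peak end, and 391 of the 567 peaks (69.0%) had it 9 to 13 bp inside. It stood at the left end of 301 peaks and at the right end of 266. When the 567 occurrences were aligned, the base just before the element was A in 65.4%, the base before that G in 52.7%, then T in 50.8% and G in 49.7%, and the base after it was C in 51.0%.

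Shared peaks carried the elements more often than odd-only peaks, and GTGATT had the widest gap. This element was present in 46.3% of shared peaks (exact binomial 95% interval 41.6% to 51.0%) and 22.8% of odd-only peaks (19.2% to 26.7%). TTTCCCC was present in 65.1% (60.5% to 69.4%) and 53.4% (48.9% to 57.8%), and TTTGGGG in 12.2% and 12.9%. The gap in GTGATT was also seen among peaks of one height: at 3 tags it was found in 54 of 124 shared and 71 of 347 odd-only peaks (43.5% and 20.5%), and at 4 tags in 44.3% and 27.3%. For TTTCCCC the gap varied with height: it was found in 54.8% of shared and 52.2% of odd-only peaks at 3 tags, in 71.1% and 52.9% at 4 tags, and in 68.3% and 73.9% at 5 tags, where only 23 peaks were odd-only. The related run TTTTGGGG went the other way, with 20 shared and 44 odd-only peaks among the 64 that held it within 15 bp of an end.

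**Figure D2:**
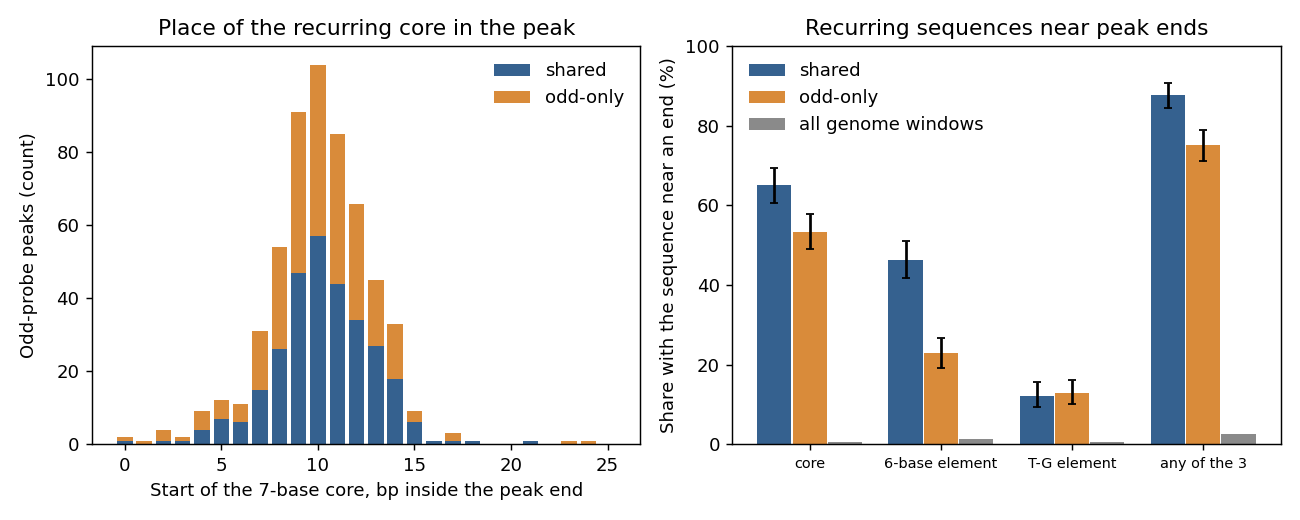
Left, number of odd-probe peaks (y axis) by the distance from the peak end to the start of the most frequent 7-base element (the core, x axis, bp), stacked for shared and odd-only peaks, with a median of 10 bp. Right, percent of shared peaks, odd-only peaks and genome windows (y axis) that hold the core, the 6-base element starting with G, the element of T and G, or any of the 3 near an end; bars are exact binomial 95% intervals and any element is at 87.8% and 75.2%, against 2.55% of windows.

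A minority of 105 odd peaks (10.9%) held none of the 3 elements and none of the 20 recurring sequences. They also held no run of at least 12 bases of an odd or even probe. Of these, 27 were shared and 78 odd-only, or 5.90% of shared and 15.5% of odd-only peaks. Their median pileup was 3 tags and their highest 6. Those with 6 tags were the Gm29797 promoter peak shown above, with 5 even tags, and a shared peak at chr6:88456550-88456699 with 4 even tags, 8784 bp from the start of Ruvbl1, which encodes an ATPase of chromatin remodelling complexes.

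Most odd peaks lay in introns or between genes. By the position of their centre, 433 of 962 (45.01%, exact binomial 95% interval 41.8% to 48.2%) lay in introns, 432 (44.9%, 41.7% to 48.1%) between genes, 55 (5.72%) in exons and 42 (4.37%) in promoters, taken as the 2000 bp upstream of a gene start. The same classes made up 40.1%, 51.4%, 4.52% and 4.01% of the genome. Over all peaks the share in introns was thus above and the share between genes below that of the bases, with both genome values outside the intervals. The intron share was smaller without the lowest peaks. With at least 4 tags 41.3% lay in introns, and with at least 5 tags 38.5%. The share between genes was 46.8% and 48.0%. No counting interval is given for these smaller sets, so no difference from the genome values is read from them. Shared peaks lay in introns in 43.2%, between genes in 47.4%, in exons in 4.59% and in promoters in 4.80%. For odd-only peaks the shares were 46.6%, 42.7%, 6.75% and 3.97%. The median distance to the nearest start of a protein-coding gene was 61360.5 bp for shared and 61025.5 bp for odd-only peaks. The median GC content was 42.9%, and 188 peaks (19.5%) had over 50% of their bases in soft-masked repeats. Such repeats cover 36.4% of genome bases, a share of bases that is not directly comparable with a share of peaks.

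**Figure D3:**
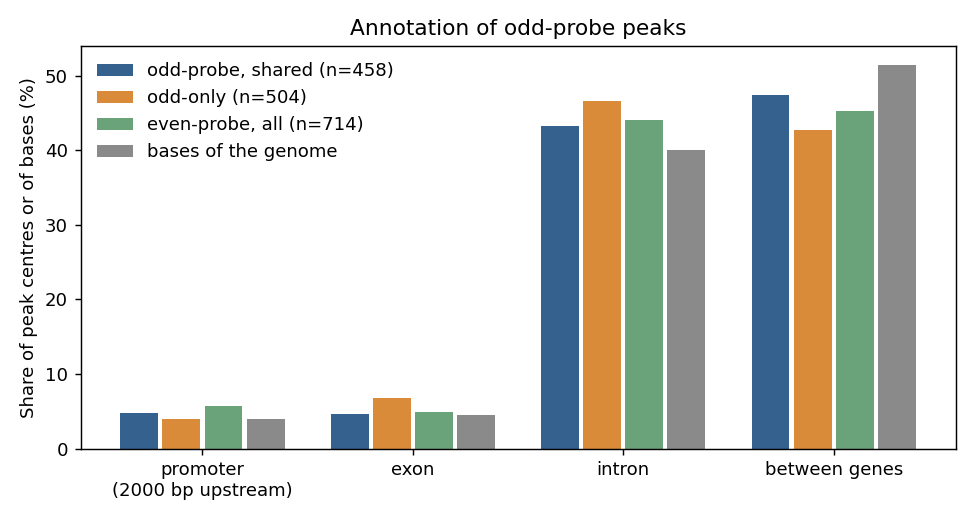
Percent of peak centres in promoters, exons, introns and between genes (y axis) for shared odd-probe, odd-only and all even-probe peaks, beside the percent of genome bases in each class (x axis groups). Introns hold 43.2% of shared and 46.6% of odd-only peaks and 40.1% of the genome.

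A promoter peak was found at 51 of 55413 annotated genes (0.092%), through 46 distinct peaks, and at 20 of 21938 protein-coding genes (0.0912%). Of the 51 genes, 29 had a shared and 22 an odd-only peak. Of the 46 peaks, 3 lay inside the target gene, at the promoters of Pvt1, Gm27913, Gm27718 and Gm27957, and all were shared. Among the coding genes 12 had a shared and 8 an odd-only peak. An element was present in 35 of the 46 peaks.

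The highest shared promoter peak lay at Commd8, which encodes a member of the COMMD protein family, with 12 odd and 17 even tags and its centre 207 bp upstream of the gene start. The peak 447 bp upstream of Vps29, a subunit of the retromer that recycles membrane proteins from endosomes, had 11 odd and 8 even tags and lay at the same time in an exon of Rad9b, a relative of the DNA damage clamp subunit Rad9a. Ubfd1 had 9 odd and 11 even tags at a peak 129 bp upstream, within the neighbouring Ears2, a mitochondrial glutamyl-tRNA synthetase. Even tags outnumbered odd tags at Commd8 and Ubfd1 and were fewer at Vps29.

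Col6a4, a collagen VI chain, had 8 odd and 5 even tags 196 bp upstream, and Tbc1d14, a TBC-domain protein that regulates autophagy, 7 and 7 tags 246 bp upstream. A single peak of 5 odd and 3 even tags lay between the diverging starts of Cfap52, a ciliary protein, and Stx8, a syntaxin of late endosomes. Nup214, a nuclear pore protein, had 5 and 5 tags at a peak whose centre was 2044 bp upstream and whose edge reached into the promoter window. Rnf180, a ubiquitin ligase, had 5 and 3 tags, and Pgrmc2, a haem-binding membrane protein, 3 and 3. Each of these 10 shared promoter genes had a peak with at least 1 of the 3 elements.

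Odd-only promoter peaks were lower. Ptpn13, a protein tyrosine phosphatase, had 6 tags 1665 bp upstream, and Mocos, the molybdenum cofactor sulfurase, 5 tags 1832 bp upstream. Cyb5r2, a cytochrome b5 reductase, Dhx38, an RNA helicase of the spliceosome, Mdm1, a centriolar microtubule protein, and the odorant receptor Olfr1130 had 4 tags each. Rnf24 and Sash3, a lymphocyte adaptor protein, had 3 tags each. The peaks of Cyb5r2, Dhx38, Mdm1 and Sash3 held no element, no recurring end sequence and no probe run, and lay 130, 204, 1594 and 1200 bp upstream.

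Those 4 peaks were among 8 promoter peaks of that kind, at 9 genes. The others lay at Gm29797, at Terc and the pseudogene Gm21960 through 1 peak, and at Gm42587 and Gm40975. Terc encodes the RNA template of telomerase, and is named here after its values were seen. Its peak, at chr3:96415018-96415165 and centred 232 bp upstream, had 4 odd and 5 even tags.

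**Figure D4:**
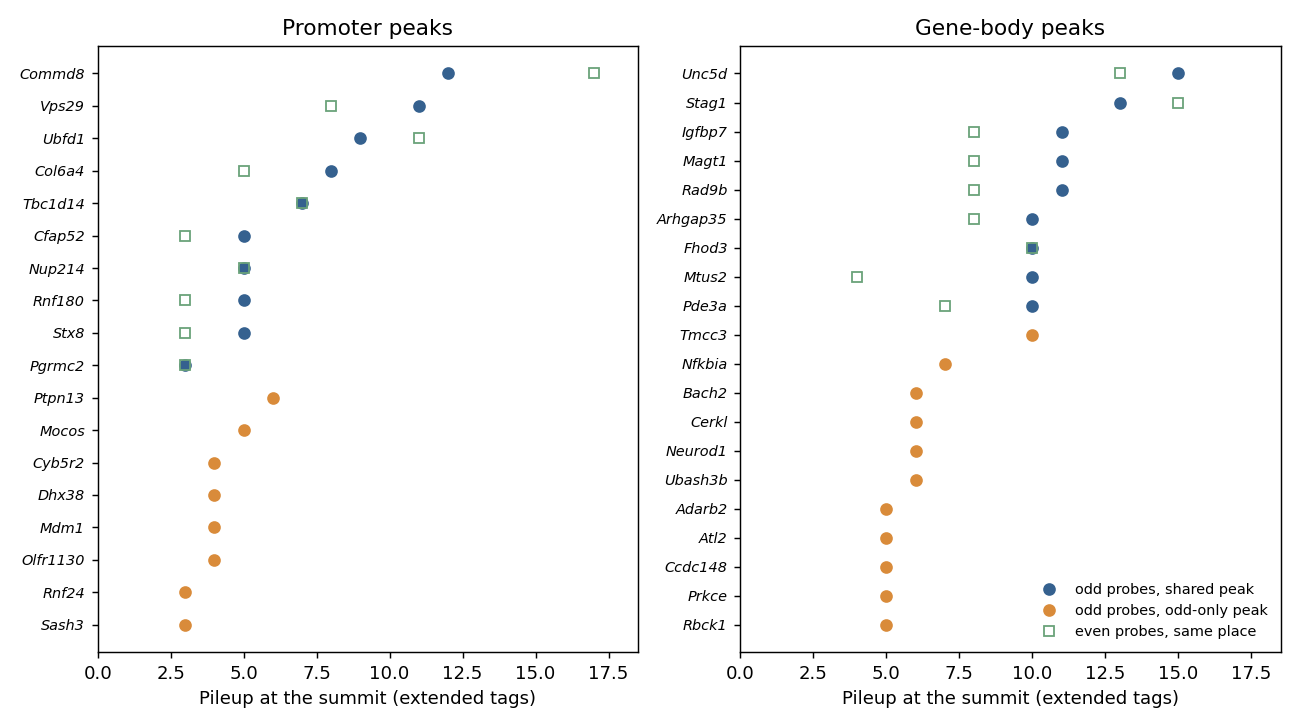
Pileup at the summit in extended tags (x axis) of the highest peak of each named protein-coding gene (y axis), at promoters (left) and in gene bodies (right). Filled points are odd-probe peaks, shared or odd-only, and open squares the even-probe peak at the same place; shared promoter peaks run from 3 to 12 odd tags and odd-only ones from 3 to 6.

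Counting gene bodies and promoters together, 561 of 55413 genes (1.01%) and 423 of 21938 coding genes (1.93%) had an odd peak. Gene bodies accounted for 403 coding genes, of which 376 held 1 peak, 25 held 2 and 2 held more. These genes were long, with a median of 119345 bp against 17425 bp for all coding genes, and 57.3% of them exceeded 100 kb against 11.4% of all. A longer gene offers more positions for a peak, and this comparison is not weighted by gene length.

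Among protein-coding genes, the highest shared peak in a gene body lay in an intron of Unc5d, a receptor for netrins, with 15 odd and 13 even tags. Stag1, a cohesin subunit, followed with 13 and 15 tags. Igfbp7, a secreted protein of the IGF-binding family, and Magt1, a magnesium transporter and oligosaccharyltransferase subunit, each had 11 odd and 8 even tags. Magt1 was the only one of the 10 named genes with a shared body peak whose peak held none of the elements, and it held 13 bases of an even probe. Arhgap35 had 10 and 8 tags, Fhod3, a formin of the cardiac sarcomere, 10 and 10, Mtus2, a microtubule-associated protein, 10 and 4, and Pde3a, a cyclic nucleotide phosphodiesterase, 10 and 7 in an exon. Odd pileups were at or above the even ones at all of these except Stag1. The genes were picked for a high odd pileup, which favours that direction, so no difference between the probe sets is read from it.

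Among odd-only gene-body peaks the exon peak of Nfkbia, which encodes the NF-κB inhibitor IκBα, had 7 tags at chr12:55489523-55489676. Bach2, a transcriptional repressor of lymphocytes, and Ubash3b, a phosphatase of immune signalling, had 6 tags each in introns. A peak of 6 tags lay at once in an exon of Neurod1, a neuronal and endocrine transcription factor, and in an intron of Cerkl. Adarb2, Atl2, Ccdc148, Prkce and Rbck1 had 5 tags each. An element was present in the peak of each of these named odd-only genes. Genes tied at 5 tags were taken in order of name, and Rbfox3, a neuronal splicing factor gene that this order left out, had an odd-only intron peak of 5 tags without an element.

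Coding genes with several odd peaks were rare. Auts2, a gene of neuronal development, held 4 peaks of 3, 4, 3 and 3 tags, of which the one with 4 tags was shared. Tmcc3, a membrane protein of the endoplasmic reticulum, held 3 peaks of 3, 10 and 3 tags, and its highest was odd-only while 1 of the lower ones was shared with an even pileup of 4.

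The muscle gene lists are read against the 1.93% of all coding genes with an odd peak, a share not adjusted for gene length. The median gene length was 13860.5 bp in the myogenic list and 33175 bp in the atrophy list, against 17425 bp for all coding genes. Of 22 myogenic and myoblast identity genes 1 had an odd peak, Megf10, a satellite cell surface protein, with 3 tags in an intron. None of 26 sarcomere genes had one. Of 28 genes of atrophy, FoxO and Akt signalling, 3 had a peak: Igf1r, the receptor of insulin-like growth factor 1, with 8 odd and 8 even tags at its higher peak, Runx1, a transcription factor induced in denervated muscle, with 5 and 5, and Foxo3, a driver of atrophy genes, with 3 odd tags only. None of 28 genes of the Myc network and cell cycle, 24 of mitochondrial dynamics, 24 of apoptosis and 25 of autophagy had an odd peak.

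Of 27 genes of Wnt and TGF-beta signalling, Apc, a scaffold that restrains beta-catenin, had 4 tags and the Wnt co-receptor Lrp5 3 tags, both odd-only. Crebbp, which encodes an acetyltransferase, had 3 odd and 5 even tags and Jarid2, a Polycomb cofactor, 3 odd tags only, out of 26 regulators of chromatin and Polycomb. Lists for other cell types gave 4 of 26 synaptic genes (Nrxn3 with 6 odd and 4 even tags, Cntnap2 with 3 and 4, Grin2a and Dlg2 with 3 odd tags each) and none of 22 hepatocyte genes. The synaptic genes had a median length of 136272 bp against 28007 bp over all lists. In all 12 of 277 listed genes (4.33%) had an odd peak, none of them in a promoter, against 1.93% of coding genes, whose median length was given above as 17425 bp.

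Between genes, the highest peak was the shared one on chromosome 1 shown above, with 14 odd and 14 even tags, 1035856 bp from Kcnt2 and 1950719 bp from Cdc73. The chromosome 3 peak, with 13 odd and 10 even tags, lay 36748 bp from Fstl5 and 80417 bp from Golim4. At chr5:138694875-138695031 the odd pileup was 12 and the even one 3, with A430033K04Rik and Fam20c as neighbours at 42461 and 59483 bp. A peak at chr10:47236633-47236787 with 11 and 8 tags lay 1524288 bp from Hace1 and 1858046 bp from Grik2.

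Odd peaks were scattered singly. The median distance to the next odd peak was 808961 bp, and 862 peaks (89.6%) had no other within 100 kb. Only 16 lay within 10 kb of another, and 4 of those were inside Pvt1. The density was 36.3 peaks per 100 Mb over the genome. It was highest on chromosome 18, with 59.5 (52 peaks, 24 shared and 28 odd-only), followed by chromosomes 15 and 19 with 44.7 each. Of the 45 odd peaks on chromosome 15, 8 lay inside the target gene Pvt1. The density was lowest on X with 23.9 and Y with 13.6. The share of odd peaks that were shared was lowest on Y (3 of 12) and chromosome 14 (11 of 40, 27.5%), and highest on chromosome 16 (57.9%).

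**Figure D5:**
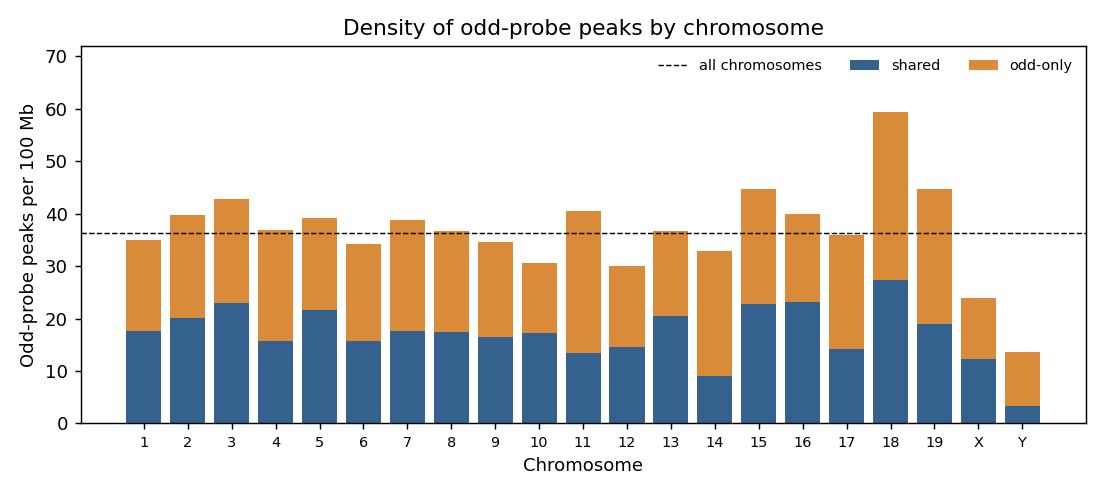
Odd-probe peaks per 100 Mb of known sequence (y axis) on each chromosome (x axis), stacked for shared and odd-only peaks, with the genome-wide density of 36.3 as a dashed line. Chromosome 18 stands highest at 59.5 and Y lowest at 13.6.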

How the data were processed

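ChIRP DNA libraries of C2C12 cells were read on an Ion Torrent sequencer, and TMAP placed the reads on mm10, per the labels. Per the file headers, the authors called peaks for each probe set with MACS2 2.1.0.20151222 against the unprecipitated library, without a fragment model, with tags extended to 147 bp, a q-value cutoff of 0.05, 1 tag kept per position and a genome size of 90000000, the caller's nematode preset; the labels name default settings. The deposited pileup is a signal that counts extended tags over the summit and takes whole values, so it was treated as not scaled to depth. The deposited p-values, q-values and fold enrichment were not used. The genome size and the removal of repeated positions bear on which low peaks are listed.

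Peaks were overlapped (at least 1 bp) and annotated with GENCODE mouse release 21 at their centre, with promoters ranked before exons, introns and intergenic sequence; promoter genes were counted by any overlap with the 2000 bp upstream. Sequences came from the RefSeq copy of GRCm38. Scripts used Python 3.11.15, numpy 2.4.6, scipy 1.17.1 and matplotlib 3.10.9 and were tested on simulated data. With 1 library per probe set, no test between conditions was made; exact binomial 95% intervals cover counting only.

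Named genes were Pvt1 and Myc, up to 10 coding genes each with the highest shared and odd-only promoter and body peaks, listed genes with a peak, genes with 3 or more peaks, and the 5 highest intergenic peaks; provisional names were left out. Of these, 1 intergenic peak is not reported here, and not all chosen sequences are printed. Peaks on chromosome 18, over 300 bp long or overlapping a UTR are not printed as sequence. The members, lists and rules were chosen with earlier results of these data known. Alternatives covered overlap, promoter width, annotation, pileup, repeat content, sex chromosomes, probe-match length and the end window.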

Additional observations from a re-analysis of the deposited data

How the results depend on the processing

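The 9 values on which the description rests were recomputed under 59 alternatives, of which 37 moved none of them beyond the counting interval of the peaks, or a count beyond 1.5 times, and 22 did. A minimum pileup of 4 tags gave a shared share of 68.02%, a median pileup 1 tag higher in shared than in odd-only peaks (2 as reported) and 41.3% of peaks in introns. A minimum of 5 tags gave 86.8%, 1 tag and 38.5%, with 23 promoter genes, 4.40% of peaks with an odd-probe run (1.87% as reported, Pvt1 included), 38.9% of odd-only peaks with a recurring end sequence and 5 peaks inside Pvt1. Promoters of 1000 bp gave 33 genes and of 5000 bp 111. Coding genes alone gave 20 promoter genes, 39.6% of peaks in introns and 54.6% between genes. With the same coding-only annotation, introns made up 35.4% and sequence between genes 59.5% of genome bases. Runs of 10 bases gave 7.69% of peaks with an odd-probe match. End windows of 5 and 30 bp gave a recurring sequence in 11.4% and 87.3% of all odd peaks and 11.3% and 85.3% of odd-only peaks, and the 10 most frequent sequences alone gave 51.1% and 43.5%. Without the peaks that hold any of the 3 elements near an end, an alternative chosen after seeing the data, 181 peaks remained, of which 30.9% were shared, with a median difference of 1 tag, 14 promoter genes, 38.7% between genes and 7.73% with an odd-probe run. The fall in these counts follows from the smaller number of peaks; for the shares the cause was not tested. No paired analysis was possible because each probe set had 1 library. With 3 tags in 49.0% of peaks, differences in height of 1 or 2 tags between single peaks were not detectable at this depth.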

Other observations

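Non-coding genes made up 31 of the 51 genes with an odd peak in the promoter. These 31 include Pvt1, Gm27913, Gm27718 and Gm27957, which were reached through peaks inside Pvt1. The share with a promoter peak was similar for all annotated genes (0.092%) and for coding genes alone (0.0912%). Non-coding genes were outside the rule for named genes, and those given here were chosen after their values were seen. Leaving out genes that overlap Pvt1, the highest peaks lay at the long intergenic RNA Gm26901, with 9 tags, and at Gm47391, with 8. One peak of 5 odd and 5 even tags lay upstream of both Mir192 and Mir194-2, clustered microRNAs of epithelial tissues, and held 15 bases of an even probe.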
